A study of Mus musculus with 18 samples.

Results

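The 9 interferon-stimulated genes *Stat2*, *Irf7*, *Irf9*, *Isg15*, *Ifit1*, *Ifit3*, *Oasl2*, *Usp18* and *Rsad2* were followed in livers of mice whose ribosomes are error-prone. They were chosen by symbol, as well-known targets and components of the interferon response, and were found by their Ensembl identifiers among 22524 genes counted in each mouse. All 9 passed the filter on low counts, which left 13353 genes for testing. Liver RNA was sequenced from 10 female A226Y mice and 8 female wild-type (WT) mice on a C57BL/6 background, all 15 months old, with 1 library per mouse. A226Y mice are heterozygous for *Rps2*-A226Y, a ribosomal ambiguity mutation in a protein of the small ribosomal subunit that lowers the accuracy of translation. Mice of both genotypes carry Cre recombinase under the ubiquitous CMV promoter. In the A226Y mice, Cre removes a *loxP*-flanked stop cassette from the targeted allele, and the methods describe this excision as partial, so each A226Y animal is a mosaic in which excised and silent floxed alleles both occur. The targeted allele was made in embryonic stem cells of a different strain, and its line was then backcrossed to C57BL/6. The WT mice carry Cre but no targeted allele. The A226Y mutation, the silent floxed allele and any remaining sequence of that strain near *Rps2* cannot be told apart in this comparison.

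Type I interferons are cytokines that cells release on sensing foreign or misplaced nucleic acid. They bind a receptor whose associated kinases, JAK1 and TYK2, phosphorylate STAT proteins, among them STAT2. STAT2 acts with IRF9 in the complex ISGF3, which binds interferon-stimulated response elements near its target genes. In liver, hepatocytes, Kupffer cells (the resident macrophages) and endothelial cells can all respond, and part of the signature is present without infection.

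The deposited values are counts of reads per gene. Libraries of A226Y mice held 23850565 to 62126131 counts and those of WT mice 25869192 to 34918732, and the 8 hepatocyte markers examined were abundant in every liver. *Rps2*, the targeted gene, lay between 46.9 and 83.0 CPM in the 10 A226Y mice and between 104 and 143 CPM in the 8 WT mice, so these groups did not overlap. CPM stands for counts scaled to a common library size by the TMM method. A226Y animal 29 had the highest level of each of the 9 genes among the A226Y mice, and WT animal 6 had the lowest level among the WT mice of all but *Stat2*, so counts that turn on either are given both ways.

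Sequence upstream of the genes was examined for the letters GAAANNGAA, the core of an interferon-stimulated response element, on both strands (TTCNNTTTC on the other). RefSeq promoter windows of GRCm38.p6, from 250 bases before to 50 bases after the annotated start, were available for 8 of the 9 genes, all but *Usp18*. The motif was in a window of 5 of these 8 genes, against 9.76% of the 27025 genes with a window, and 8.56% of all 32851 windows held it. The matching stretches are shown because this element is what ISGF3 binds. Each is written 5′ to 3′ on the strand of its gene, with the matches in capitals and 8 flanking bases on either side.
*Stat2* (chr10:128270269-128270293, plus strand): accctggtTTCAGTTTCctttccct
*Isg15* (chr4:156200868-156200904, minus strand): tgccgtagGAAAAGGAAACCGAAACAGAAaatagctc
*Ifit1* (chr19:34640772-34640821, plus strand): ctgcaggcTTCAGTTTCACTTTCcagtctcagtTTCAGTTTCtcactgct
*Ifit3* (chr19:34583366-34583443, plus strand): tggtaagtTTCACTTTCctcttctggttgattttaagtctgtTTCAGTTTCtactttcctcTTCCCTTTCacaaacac
*Rsad2* (chr12:26456555-26456579, minus strand): gtccaactTTCATTTTCagaaaaca

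*Isg15*, *Ifit1* and *Ifit3* each held 3 matches, which overlap one another in *Isg15* and in part in *Ifit1*. *Stat2* and *Rsad2* each held 1. The match lay 221 to 213 bases before the annotated start in *Stat2*, 119 to 111 bases before it in *Rsad2*, and the matches of *Isg15* spanned 78 to 58 bases before it. The *Ifit3* stretch occurs letter for letter upstream of its neighbour *Ifit3b* (chr19:34607762-34607839, plus strand). The windows of *Irf7*, *Irf9* and *Oasl2* did not hold these letters, which says nothing of sites elsewhere.

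In the A226Y livers the average level of each of the 9 genes was below that of the WT livers, but only *Stat2* passed the test across all genes. The log2 fold changes (A226Y minus WT) ran from −0.75 for *Ifit1* to −0.18 for *Usp18*, with a median of −0.48, while the median of all 13353 tested genes was −0.0044. By edgeR's quasi-likelihood test with Benjamini-Hochberg adjustment over all tested genes, 1 of the 9 was lower at an adjusted p under 0.05, and 7.03% of all genes tested were called lower. None of the 9 was higher, by this test, by DESeq2 or at an unadjusted p under 0.05, against 7.27% of all genes called higher. At an unadjusted p under 0.05, 6 of the 9 were lower, against 14.7% of all genes. With 4 surrogate variables (hidden factors estimated from the counts) as covariates, none of the 9 passed and 1 was lower at an unadjusted p under 0.05, in a fit that called 50 genes in all and 0.157% of all genes lower. In that fit the median of the 9 log2 fold changes turned to 0.06, with *Isg15*, *Ifit1*, *Ifit3*, *Usp18* and *Rsad2* above 0 and *Stat2*, *Irf7*, *Irf9* and *Oasl2* below it.

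Without A226Y animal 29, the same test called 7 of the 9 lower, all but *Usp18* and *Rsad2*, against 10.3% of all genes. Without WT animal 6 it called 5 lower (*Stat2*, *Irf9*, *Isg15*, *Ifit1* and *Ifit3*), against 9.27% of all genes. Both animals were picked from the levels of these same genes, so leaving either out widens most of the differences by construction. These counts therefore do not test the genes anew. Without WT animal 14, and likewise without WT animal 33, edgeR called 1 of the 9, *Stat2*. Those fits called 622 of 13329 and 866 of 13311 genes lower. DESeq2, run on all 18 mice, called 4 lower (*Stat2*, *Irf9*, *Isg15* and *Ifit1*), against 8.77% of all genes. Per-library offsets for transcript length gave 2 of the 9 called lower, against 7.29% of all genes, and offsets for GC content gave 3, against 7.64%. The plot of the levels by mouse marks A226Y animal 29 and WT animal 6.

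**Figure D1:**
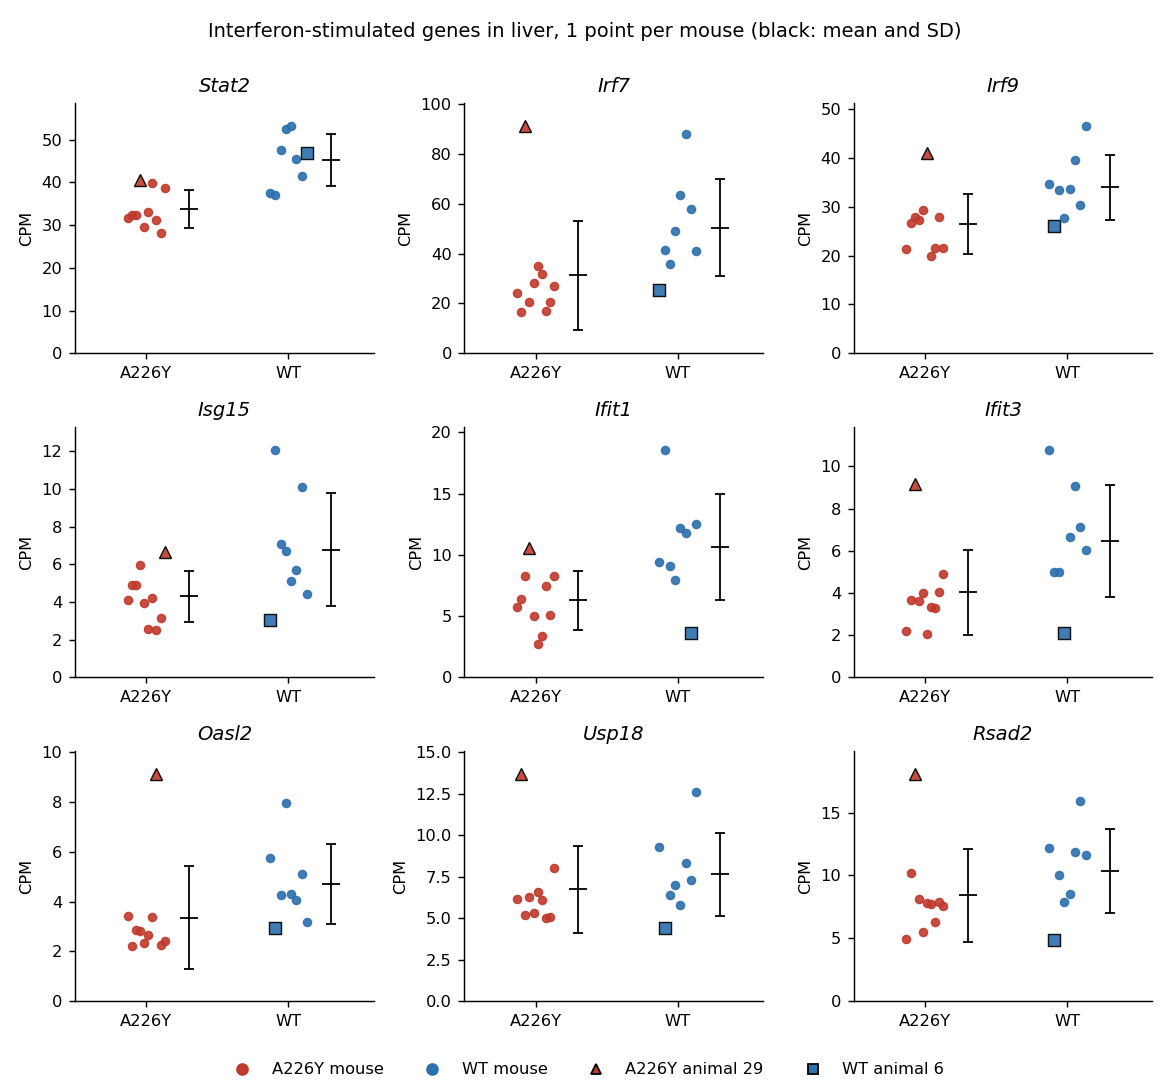
Level of each of the 9 genes in CPM (vertical axes, from 0) in the 10 A226Y and 8 WT mice, with 1 point per mouse and the mean and SD in black. A226Y animal 29 (triangle) is the highest A226Y mouse in every panel, and WT animal 6 (square) is the lowest WT mouse in every panel but that of *Stat2*.

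*Stat2* (ENSMUSG00000040033, chromosome 10 of GRCm38, 128270559 to 128292849, plus strand) encodes the STAT that is particular to type I and type III interferon signalling. Its level in the A226Y mice was lowest at 28.2 CPM, with a median of 32.3 and a highest value of 40.6 CPM. In the WT mice it was lowest at 37.1 CPM, with a median of 46.1 and a highest value of 53.3 CPM. The groups overlapped at their edges, since 7 of 10 A226Y mice lay below every WT mouse and 6 of 8 WT mice lay above every A226Y mouse. *Stat2* fell by 0.42 on the log2 scale (standard error 0.09, edgeR adjusted p = 0.00444), and the A226Y mice stood at 74.6% of the WT level. The two-sided exact permutation test of log2 CPM gave p = 0.000548, unadjusted. Leaving out each mouse in turn, the adjusted p stayed between 0.00206 and 0.0122. With the surrogate variables the log2 fold change was −0.39 and its adjusted p was 0.098, so the call was lost.

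*Irf9* (ENSMUSG00000002325, chromosome 14, 55603571 to 55610030, plus strand) encodes the DNA-binding part of ISGF3. A226Y mice ranged from 19.9 to 41.1 CPM with a median of 27.0, and WT mice from 26.1 to 46.6 CPM with a median of 33.6. The A226Y mice other than animal 29 reached at most 29.3 CPM, and 6 of 8 WT mice lay above that. The log2 fold change was −0.36 (standard error 0.13, edgeR adjusted p = 0.0652, exact permutation p = 0.0176). Without animal 29 the edgeR adjusted p was 0.00808, and without WT animal 14 it was 0.156. Its locus overlaps *Rnf31* on the same strand, and reads from either can be counted for the other. *Rnf31* itself fell by 0.24 (edgeR adjusted p = 0.0106), so the value for *Irf9* is uncertain.

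*Irf7* (ENSMUSG00000025498, chromosome 7, 141262706 to 141266481, minus strand) encodes the interferon-induced factor that amplifies interferon production. It showed the widest spread of the 9 genes among A226Y mice on the log2 scale, with an SD of 0.71. Levels ran from 16.7 to 91.4 CPM among A226Y mice, where the median was 25.6, and from 25.6 to 88.2 CPM among WT mice, where it was 45.3. Animal 29 carried the highest *Irf7* level of all 18 mice, and the next A226Y mouse was at 35.1 CPM. Of the WT mice, 7 of 8 lay above that next mouse. The log2 fold change was −0.69 (standard error 0.30, edgeR adjusted p = 0.125, exact permutation p = 0.0214) with all mice, and −1.03 (adjusted p = 0.00304) without animal 29. It was −0.52 (edgeR adjusted p = 0.243) without WT animal 33. *Phrf1*, which overlaps *Irf7* on the opposite strand and would share reads where counting ignores strand, had a log2 fold change of 0.07 (adjusted p = 0.56).

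**Figure D2:**
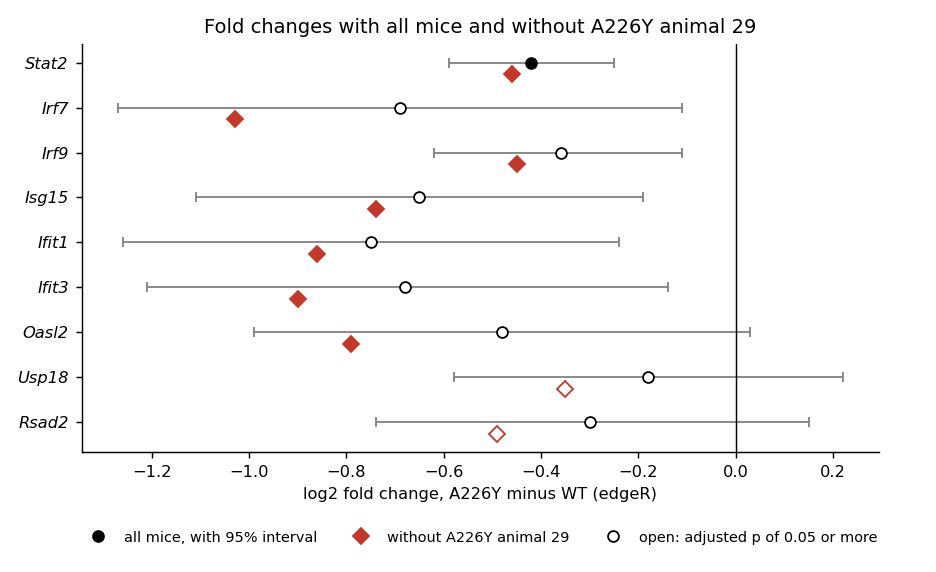
Log2 fold change of A226Y against WT (horizontal axis) for the 9 genes (vertical axis). Circles are the fit on all mice with 95% intervals and diamonds the fit without A226Y animal 29, and filled symbols have an adjusted p under 0.05 (1 of 9 circles and 7 of 9 diamonds). Animal 29 was picked from the levels of these genes.

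Among the effector genes, *Isg15* (ENSMUSG00000035692, chromosome 4, 156199424 to 156200818, minus strand) encodes a ubiquitin-like modifier that is attached to newly made proteins during an interferon response. A226Y mice had 2.53 to 6.64 CPM (median 4.15) and WT mice 3.06 to 12.1 CPM (median 6.19). The groups overlapped, with 4 of 8 WT mice above every A226Y mouse and 2 of 10 A226Y mice below every WT mouse. The log2 fold change was −0.65 (standard error 0.23, edgeR adjusted p = 0.0659, exact permutation p = 0.0343). All 10 A226Y mice lay below the WT mean.

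*Ifit1* (ENSMUSG00000034459, chromosome 19, 34640871 to 34650009, plus strand) and *Ifit3* (ENSMUSG00000074896, chromosome 19, 34583531 to 34588731, plus strand) lie in one cluster and encode proteins that bind viral RNA. For *Ifit1*, A226Y mice had 2.69 to 10.6 CPM (median 6.09) and WT mice 3.64 to 18.6 CPM (median 10.6). Its log2 fold change was −0.75 (standard error 0.26, edgeR adjusted p = 0.0559, exact permutation p = 0.0282), and the A226Y mice stood at 59.4% of the WT level. This was the lowest such ratio of the 9 genes. For *Ifit3*, A226Y mice had 2.05 to 9.17 CPM (median 3.65) and WT mice 2.1 to 10.8 CPM (median 6.36). Its log2 fold change was −0.68 (standard error 0.27, edgeR adjusted p = 0.1, exact permutation p = 0.0461). WT animal 6 lay at the bottom of the whole range of *Ifit3*, next to the lowest A226Y mouse. Of the stretches of 50 bases, the read length, in the *Ifit3* transcript, 51.2% also occur in *Ifit3b*, so the split of reads between both genes is uncertain. Summed, the pair had 5.04 ± 2.46 CPM in the 10 A226Y mice and 8.15 ± 3.38 CPM in the 8 WT mice (mean ± SD), a log2 difference of −0.67 (exact permutation p = 0.0503, unadjusted). For *Ifit1* the share of such stretches that occur in another gene was 7.13%, and for *Isg15* it was 3.96%.

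*Oasl2* (ENSMUSG00000029561, chromosome 5, 114896936 to 114912234, plus strand) belongs to the oligoadenylate synthetase family of antiviral proteins. Its A226Y values were tight apart from 1 animal, from 2.23 to 3.43 CPM in 9 mice and 9.14 CPM in animal 29, with a median of 2.74 CPM. The WT mice ranged from 2.93 to 7.94 CPM (median 4.29), and 7 of 10 A226Y mice lay below all of them. The log2 fold change was −0.48 (standard error 0.26, edgeR adjusted p = 0.223, exact permutation p = 0.0449) with all mice and −0.79 (adjusted p = 0.0042) without animal 29. It was −0.33 (edgeR adjusted p = 0.411) without WT animal 33.

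*Rsad2* (ENSMUSG00000020641, chromosome 12, 26442746 to 26456452, minus strand) encodes viperin, a radical SAM enzyme that makes a chain-terminating nucleotide. A226Y mice had 4.97 to 18.1 CPM (median 7.76) and WT mice 4.9 to 15.9 CPM (median 10.8). No A226Y mouse lay below the lowest WT mouse and no WT mouse above the highest A226Y mouse. The log2 fold change was −0.30 (95% interval −0.74 to 0.15, edgeR adjusted p = 0.399, exact permutation p = 0.211), and it was −0.49 (adjusted p = 0.058) without animal 29 and −0.18 without WT animal 33.

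*Usp18* (ENSMUSG00000030107, chromosome 6, 121245906 to 121270917, plus strand) is the negative regulator among the 9. Its product removes ISG15 from proteins and blocks signalling at the interferon receptor. A226Y mice had 4.98 to 13.7 CPM (median 6.11) and WT mice 4.42 to 12.6 CPM (median 7.13). The ranges almost coincided. The log2 fold change was −0.18 (95% interval −0.58 to 0.22, edgeR adjusted p = 0.598, exact permutation p = 0.394), the smallest of the 9. It was −0.35 without animal 29 and −0.04 without WT animal 14.

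The genes differed in abundance. Per kilobase of annotated exon, *Irf7* had the highest mean level in WT liver, at 13.3 ± 5.15 CPM per kb (SD, n = 8), followed by *Isg15* at 8.97 ± 3.98, *Stat2* at 7.63 ± 1.04 and *Irf9* at 6.31 ± 1.22 CPM per kb. *Ifit1* at 4.01 ± 1.62, *Ifit3* at 3.71 ± 1.52, *Usp18* at 2.74 ± 0.898 and *Rsad2* at 2.39 ± 0.765 CPM per kb came next. *Oasl2* was last, at 0.737 ± 0.251 CPM per kb. Neighbours in this order differed by less than the larger of their SDs, except *Stat2* from *Irf9*, *Irf9* from *Ifit1* and *Rsad2* from *Oasl2*. In the A226Y mice *Irf7* was also highest, at 8.29 ± 5.82 CPM per kb (SD, n = 10), and *Oasl2* lowest, at 0.527 ± 0.326 CPM per kb.

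The genes moved together from mouse to mouse, *Stat2* less closely than most. Over the 18 mice, with each genotype's mean removed, Pearson's r ran from 0.35 to 0.91 over the 36 pairs of genes, with a median of 0.76. For the 8 pairs with *Stat2* the median was 0.48 (range 0.35 to 0.66), and for the other 28 pairs it was 0.80 (range 0.53 to 0.91), so the ranges overlapped. Without animal 29 these medians were 0.34 and 0.72. All pairs share the same libraries and the same scaling, and r is given as a description.

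**Figure D3:**
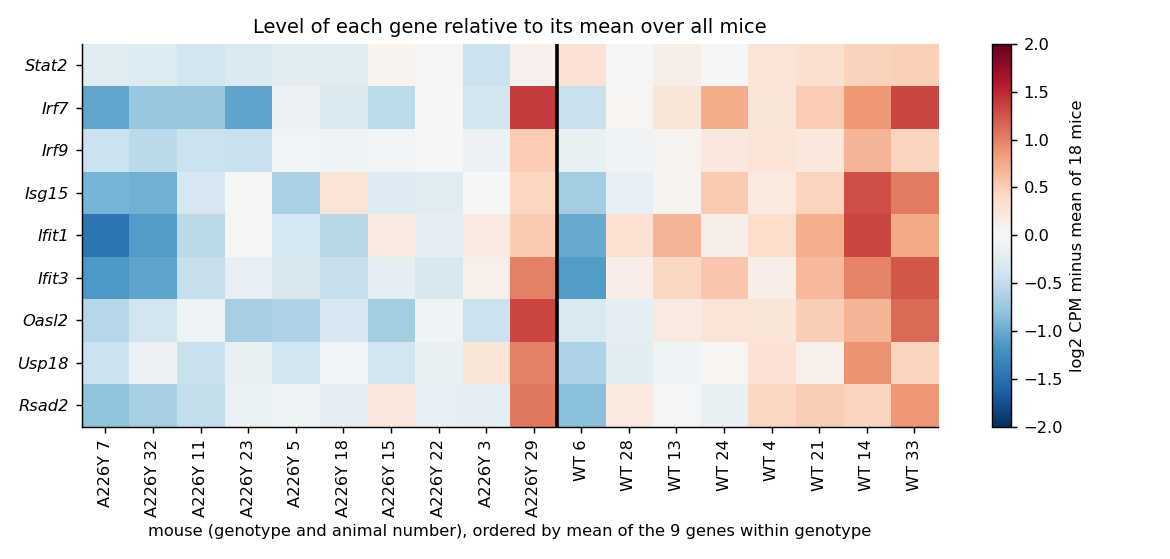
Level of the 9 genes (rows) in the 18 mice (columns, by genotype and animal number), as log2 CPM minus the gene's mean over all mice, with red above and blue below that mean. Mice are ordered within genotype by their mean over the 9 genes, which places animal 29 last in the A226Y group and WT animal 6 first in the WT group.

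A score per mouse, the mean of the centred log2 CPM of the 9 genes, put this in one value. A226Y mice scored from −0.77 to 0.81 (median −0.26), and WT mice from −0.53 to 0.86 (median 0.25). Animal 29 scored 0.81, and the other 9 A226Y mice scored between −0.77 and −0.11. WT animal 6 scored −0.53. The other WT mice scored 0.00 or more, so the groups overlapped through these 2 animals.

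With each genotype's mean removed from gene and score, the genes whose mouse-to-mouse pattern was most like the score, out of 11932 genes averaging 1 CPM or more, were themselves mostly known interferon targets, and 7 of the 10 stood in the pathway lists described below. *Xaf1*, which encodes an antagonist of the apoptosis inhibitor XIAP, had r = 0.99 over the 18 mice. *Apol9a* and the receptor transporter gene *Rtp4* had r = 0.95. *Uba7*, *Cmpk2* and the class Ib histocompatibility gene *H2-T22* had r = 0.94, and *Samhd1*, *Gbp9*, *Zbp1* and the immunoproteasome gene *Psmb8* had r = 0.93. Of these 10 genes, 6 were called lower in the A226Y mice (*Apol9a*, *Rtp4*, *Uba7*, *H2-T22*, *Zbp1* and *Psmb8*), against 7.03% of all genes tested, a count that describes genes chosen for their likeness to the score. It was 8 without animal 29 and 8 without WT animal 6 (*Xaf1* and *Samhd1* in addition), and 4 without WT animal 14 or WT animal 33. *H2-T22* fell by 0.68 (standard error 0.14, edgeR adjusted p = 0.0041) and *Psmb8* fell by 0.67 (standard error 0.18, adjusted p = 0.0177). With the surrogate variables these were −0.26 (adjusted p = 0.0947) and −0.23 (adjusted p = 0.322), and none of the 10 genes was called by edgeR. *Samhd1*, which encodes a dNTP hydrolase that restricts viruses, had a log2 fold change of −0.39 (adjusted p = 0.114). Without animal 29, 6 of the 10 remained among the 10 most alike.

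The rest of the pathway was read from lists of genes by role. The counts called in these lists stand beside the shares of all tested genes, 7.03% lower and 7.27% higher with all mice. The share called lower was 10.3% without animal 29, 9.27% without WT animal 6 and 8.77% with DESeq2. With the surrogate variables as covariates, edgeR called no gene of these lists lower or higher, so each call below was lost in that fit. The medians of the other interferon-stimulated genes, the conjugation enzymes and the chemokines were −0.02, −0.16 and −0.11 there, against −0.34, −0.59 and −0.72 without these covariates. The interferon ligand genes examined were at or near 0 counts, and those outside the list were not examined. Of 10 ligand genes, 8 had 0 counts in every mouse, among them *Ifnb1*, and the most seen for any was 4 counts in 1 mouse. A count of 0 allows a level of up to 3 counts, or between 0.0483 and 0.126 CPM depending on the mouse, for counting error only.

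Of 8 receptor and kinase genes tested, 2 were called lower and none higher. Their median log2 fold change was −0.08. *Ifngr2*, a chain of the interferon-gamma receptor, fell by 0.24 (standard error 0.07, edgeR adjusted p = 0.0374). *Tyk2* fell by 0.20 (standard error 0.06, adjusted p = 0.0397). *Jak1* (log2 fold change 0.08, adjusted p = 0.287), *Ifnar1* (0.01, adjusted p = 0.92) and *Ifnar2* (−0.17, adjusted p = 0.0918) were not called. The calls of *Ifngr2* and *Tyk2* were lost in 8 and in 9 of the 18 fits that left out 1 mouse. That of *Tyk2* was also lost with the GC offset (log2 fold change −0.18, edgeR adjusted p = 0.135). Without animal 29, and likewise without WT animal 6, *Ifnar2* was called as well, so the list held 3 lower genes.

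Of 7 other interferon regulatory factors, 1 was called lower and none higher, with a median of −0.23. The number called lower was 3 without animal 29 (*Irf1*, *Irf3* and *Irf8*), 2 without WT animal 6 (*Irf1* and *Irf2*) and 3 with DESeq2. *Irf1*, a factor induced mainly by interferon-gamma, fell by 0.42 (standard error 0.10, edgeR adjusted p = 0.00865), and all 10 A226Y mice lay below the WT mean. Its call held in each of the 18 fits without 1 mouse, with an adjusted p of at most 0.0208, but with the surrogate variables its log2 fold change was −0.15 (adjusted p = 0.482).

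Of 17 nucleic acid sensors and adaptors, 2 (11.8%) were called lower and 1 higher, with a median of −0.03. Of all genes tested, 7.03% were called lower and 7.27% higher. *Ifih1*, which encodes the RNA sensor MDA5, fell by 0.37 (standard error 0.12, edgeR adjusted p = 0.0374). *Zbp1*, a sensor of Z-form nucleic acid, fell by 1.28 (standard error 0.42, adjusted p = 0.0444). *Tbk1*, the kinase that activates IRF3, was higher by 0.16 (standard error 0.05, adjusted p = 0.0473). These calls were lost in 11, 13 and 13 of the 18 fits without 1 mouse, for *Tbk1* including the fit without animal 29 (adjusted p = 0.0551). With the GC offset the log2 fold change of *Tbk1* was 0.07 (adjusted p = 0.443), and with the length offset it was 0.13 (adjusted p = 0.127). The most abundant adaptors, *Mavs* at 92.0 CPM and *Trim25* at 90.1 CPM in A226Y, were not called.

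Of 8 negative regulators other than *Usp18*, none was called lower by edgeR or by DESeq2 with all mice, and 1 was lower at an unadjusted p under 0.05. Without WT animal 6, edgeR called 1 lower, *Socs1*. *Ptpn11*, which encodes the phosphatase SHP2, was higher by 0.27 (standard error 0.06, edgeR adjusted p = 0.00831), a call that was lost with the offset for transcript length (adjusted p = 0.189). Of 3 enzymes that attach ISG15, 2 were called lower. *Uba7*, the activating enzyme, fell by 0.84 (standard error 0.20, adjusted p = 0.00885), and *Ube2l6*, the conjugating enzyme, fell by 0.59 (standard error 0.14, adjusted p = 0.00925). Both calls held in each fit without 1 mouse, with an adjusted p of at most 0.0235. With the surrogate variables the log2 fold change of *Uba7* was −0.38 (adjusted p = 0.102) and that of *Ube2l6* was −0.16 (adjusted p = 0.614). Without WT animal 6 all 3 enzymes were called, with *Herc6* the third.

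Of 60 other interferon-stimulated genes tested, 11 (18.3%) were called lower and none higher, with a median of −0.34. None was higher at an unadjusted p under 0.05, and none was called higher by DESeq2. *Ifi44* fell by 1.16 (standard error 0.32, edgeR adjusted p = 0.0208), with 1.95 ± 0.843 CPM in A226Y and 4.37 ± 2.84 CPM in WT (mean ± SD). *Apol9b* and *Apol9a*, a pair of similar genes between which reads can be split, fell by 1.06 (adjusted p = 0.0015) and by 0.98 (adjusted p = 0.0109). *Ifi27* fell by 0.78 (standard error 0.17, adjusted p = 0.00688). *Rtp4* fell by 0.70 (adjusted p = 0.0356), and *Ifitm3*, which blocks entry of enveloped viruses, fell by 0.70 (adjusted p = 0.0476). With the length offset *Ifitm3* lost its call (log2 fold change −0.68, edgeR adjusted p = 0.0737). The calls of *Rtp4* and *Ifitm3* were lost in 12 and in 14 of the 18 fits without 1 mouse. That of *Ifi44* was lost in 2, without WT animal 14 and without WT animal 33 (adjusted p = 0.0501 in each), and that of *Samd9l* in 1, without WT animal 14 (adjusted p = 0.0556). *Samd9l* fell by 0.50 (adjusted p = 0.0211) and *Trim21*, an antibody receptor in the cytosol, fell by 0.43 (adjusted p = 0.00673). The number called lower in this list was 37 without animal 29, 19 without WT animal 6 and 5 without WT animal 14. With library size as the only scaling it was 6, and with the surrogate variables it was 0 by edgeR, with 6 lower at an unadjusted p under 0.05.

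Of 17 interferon-gamma-inducible GTPases, 10 (58.8%) were called lower and none higher, with a median of −0.60. These proteins act on membranes around intracellular pathogens. *Gbp10* fell by 1.73 (standard error 0.40, edgeR adjusted p = 0.00866), *Gbp2b* by 1.27 (standard error 0.35, adjusted p = 0.0211), *Gbp3* by 0.99 and *Gbp6* by 0.97. *Gbp7* fell by 0.87, *Ifi47* by 0.78, *Igtp* by 0.64 and *Iigp1* by 0.60. *Iigp1* was the most abundant of these, with 172.0 ± 46.1 CPM in A226Y and 260.0 ± 61.8 CPM in WT (mean ± SD). Several of the GTPases have close copies, so the share of reads that each received is uncertain. The number called was 15 without animal 29, 12 without WT animal 6, 5 without WT animal 14 and 0 by edgeR with the surrogate variables, where 1 was lower at an unadjusted p under 0.05 and the median was −0.12. Of 4 interferon-inducible chemokines tested, *Cxcl9* fell by 0.93 (standard error 0.24, adjusted p = 0.0147) and *Cxcl10* fell by 1.05 (standard error 0.26, adjusted p = 0.0121). Both attract activated T cells. Without animal 29, *Ccl5* was called as well, which made 3. In the receptor, regulatory factor, conjugation enzyme, GTPase and chemokine lists, no gene was higher at an unadjusted p under 0.05 either.

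**Figure D4:**
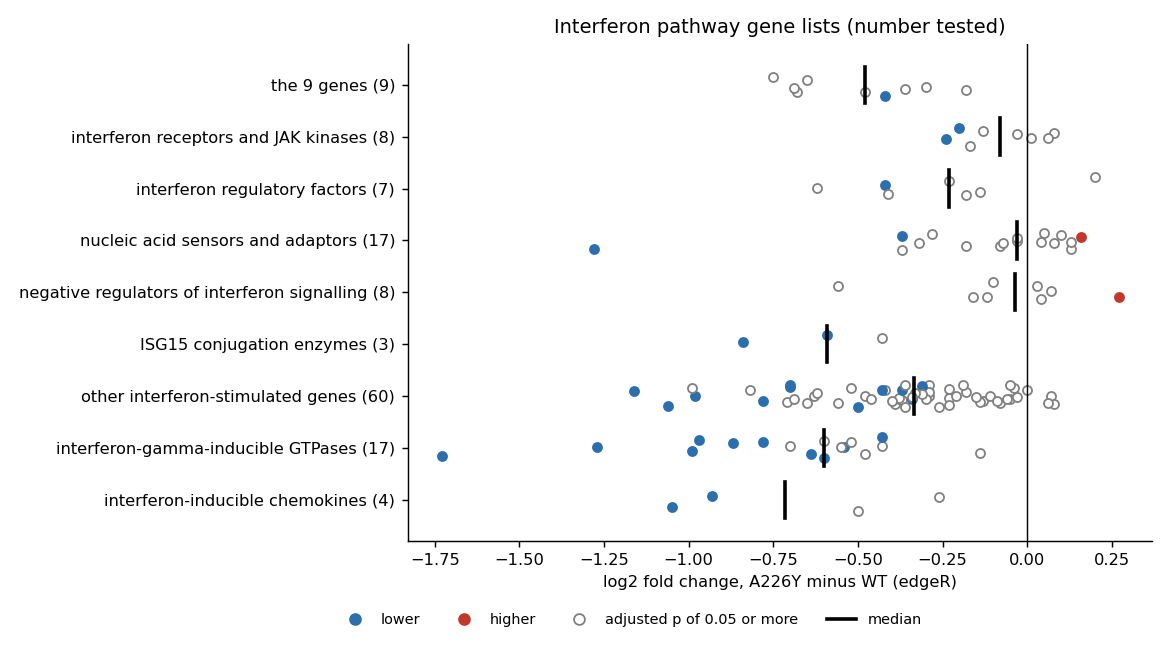
Log2 fold change of A226Y against WT (horizontal axis) for each tested gene of the 9 lists (rows, number tested in brackets), with filled blue points called lower, filled red points called higher, open points not called and a black bar at the list's median. The medians run from −0.72 for the chemokines to −0.03 for the sensors.

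Windows with GAAANNGAA were also counted in the larger lists. They were found for 27 of 48 other interferon-stimulated genes with a window (56.2%) and for 10 of 11 GTPases (90.9%). The share among tested genes with a window was 8.87%.

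Macrophage, T and NK cell and dendritic cell markers were also at an extreme of the genotype in both animals that stood apart. In these bulk samples, fewer cells of a type and less RNA per cell cannot be told apart. The 10 markers of Kupffer cells and macrophages summed to 373 to 1400 CPM in A226Y (median 507) and to 560 to 1160 CPM in WT (median 805). Animal 29 was the highest of all mice at 1400 CPM, and WT animal 6 was the lowest WT mouse at 560 CPM. Of the 10 markers, 9 had a log2 fold change below 0, with a median of −0.43. The number called lower was 1 with all mice, 7 without animal 29 and 3 without WT animal 6. The shares of all genes called lower in those fits were 7.03%, 10.3% and 9.27%. In the fit with the surrogate variables the median was −0.05 and edgeR called none. *Clec4f*, which is particular to Kupffer cells, fell by 0.65 (standard error 0.19, edgeR adjusted p = 0.0261), a call lost without WT animal 14 (adjusted p = 0.0577) and with the surrogate variables (−0.35, adjusted p = 0.0799). The 8 WT mice had the same order by macrophage sum as by interferon score. A226Y animal 5 had the second highest macrophage sum of its group, 937 CPM, and an interferon score of −0.31.

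The 6 neutrophil markers summed to 46.3 CPM in animal 29, against a median of 3.7 CPM in the A226Y mice and 3.36 CPM in the WT mice, and *Ly6g*, the defining marker of neutrophils, had at most 4 counts in any mouse. None of the 5 tested was called by edgeR or lower by DESeq2, and 1 was higher at an unadjusted p under 0.05. Markers of T and NK cells were low in all mice, at 2.44 to 7.67 CPM in A226Y and 4.06 to 11.2 CPM in WT. Those of dendritic cells were at 4.52 to 7.73 CPM and 4.74 to 10.7 CPM. In both lists animal 29 was the highest A226Y mouse and WT animal 6 the lowest WT mouse. Of the 8 and 7 genes tested in those lists, none was called by edgeR or lower by DESeq2, and 1 in each was lower at an unadjusted p under 0.05. Without animal 29 the T and NK cell gene *Nkg7* was called lower (log2 fold change −0.82, adjusted p = 0.0411), and without WT animal 6 the dendritic cell gene *Xcr1* was. The 8 B and plasma cell markers summed to 82.4 to 425 CPM in A226Y and 81.5 to 1110 CPM in WT. Animal 29 had 139 CPM and WT animal 6 had 96.5 CPM, neither at an extreme of its group. None of the 8 was called by edgeR, lower by DESeq2 or at an unadjusted p under 0.05. Log2 fold changes were below 0 in 8 of 8 T and NK cell genes (median −0.44) and 6 of 7 dendritic cell genes (−0.39). They were below 0 in 8 of 8 B and plasma cell genes (−0.55). With the surrogate variables these medians were 0.0, −0.01 and 0.26. The 8 hepatocyte markers summed to 78600 CPM in animal 29, the lowest of all mice. In A226Y, 3 of them were called higher (*Apob*, *Cps1* and *Tat*), against 7.27% of all genes, or 1 without WT animal 14. DESeq2 called 1 of the 8 lower. With the GC offset, edgeR called *Ttr* lower (log2 fold change −0.29, adjusted p = 0.0358). In the endothelial and cholangiocyte lists no gene was called by edgeR without covariates, with 1 gene at an unadjusted p under 0.05 in each. With the surrogate variables edgeR called no gene of these marker lists except the cholangiocyte gene *Spp1*, which was higher (log2 fold change 0.89, adjusted p = 0.044). *Tat* turned from 0.85 to −0.04 there, and *Cps1* went from 0.55 to 0.11 (adjusted p = 0.7). In the stellate cell list 2 of 7 genes, *Col1a1* and *Col3a1*, were called lower, against 7.03% of all genes. Both calls were lost with the surrogate variables, at −0.65 (adjusted p = 0.204) and −0.27 (adjusted p = 0.365). The median of that list was −0.13, with 4 of 7 values below 0, and *Dcn* was at 0.18 (adjusted p = 0.0913), and was called higher without WT animal 6 (adjusted p = 0.0259). The part of these cell types in the levels of the 9 genes was not tested.

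**Figure D5:**
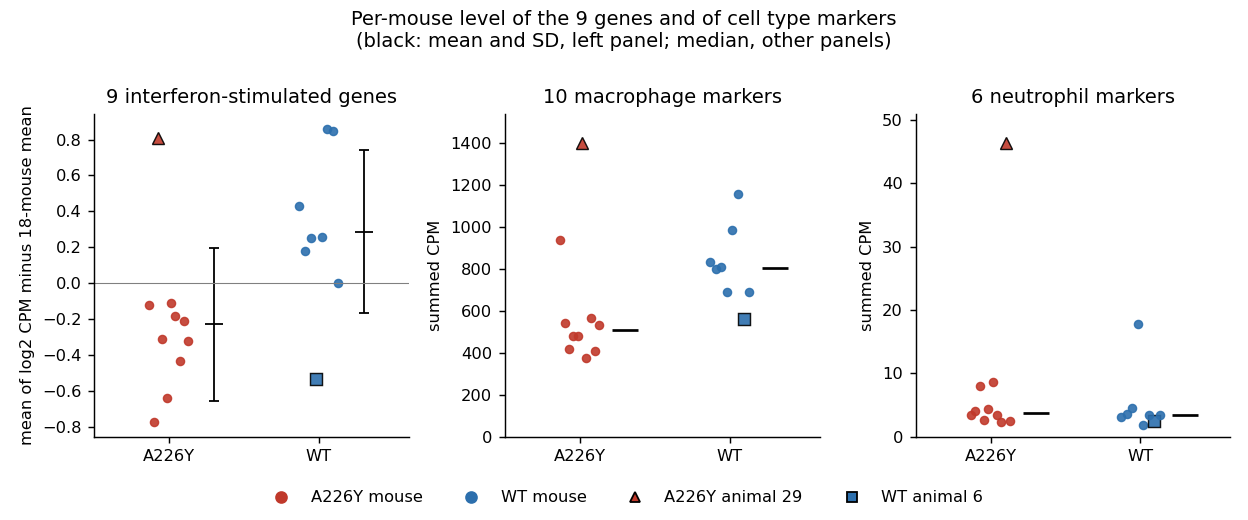
Per mouse, the mean of log2 CPM of the 9 genes minus its mean over all mice (left), and the summed CPM of 10 macrophage markers (middle) and 6 neutrophil markers (right), with 1 point per mouse. Animal 29 (triangle) is the highest A226Y mouse in all 3 panels, at 0.81, 1400 CPM and 46.3 CPM, and WT animal 6 (square) is the lowest WT mouse in the left and middle panels.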

How the data were processed

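For each mouse the authors deposited a table of raw read counts over Ensembl genes. The study's methods name RSEM, an Ensembl annotation and assembly GRCm37 for single-end reads of 50 bases, while the submitters' processing notes name bcl2fastq, MultiQC, fastp, STAR, featureCounts and GRCm38, so the step that gave these counts is uncertain, and whether counting used strand is not given in the sources used here. Of 22524 identifiers, 22291 matched GENCODE M21 on GRCm38, which gave symbols, positions and exon lengths.

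A gene was tested where 50% or more of either group reached 10 counts (13353 genes). The test was edgeR (4.0.16, in R 4.3.3), with TMM scaling, a quasi-likelihood fit on both genotypes, no covariates and Benjamini-Hochberg adjustment over all tested genes. A 95% interval is the log2 fold change plus or minus the normal multiple of its standard error. For the 9 genes, log2 CPM (prior count 2) was also compared by a two-sided exact permutation test over all 43758 divisions of the mice, whose smallest possible p is 2.29e-05. Those p-values were not adjusted. Alternatives were RLE size factors, library size only, other filters, DESeq2 (1.42.0), 4 surrogate variables (sva 3.50.0), offsets for transcript length or GC content, a prior count of 0.5 and leaving out each mouse. The fits were tried on simulated counts with the same dispersion for every gene. These held no outlying mouse and, apart from a length or GC bias, no hidden factor. They therefore do not bear on the leave-one-out or surrogate variable results.

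The common biological coefficient of variation was 0.194 and TMM factors ran from 0.894 to 1.06. No pair of mice of 1 genotype agreed within sampling noise (chi-square per degree of freedom of at least 20.1). The 9 genes had between 56 and 3111 counts in a mouse, so animal-to-animal spread, not counting error, limits the precision. Each mouse is a separate animal.

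The 9 genes and the pathway and marker lists were chosen with earlier results of these data known. Of the listed symbols, *Oas1b*, *Mx2*, *Gbp11*, *Gm12250* and *Cxcl11* were not matched. Beside the 9 genes, the text names called genes of each pathway list (up to 8 with the largest change and a mean of at least 1 CPM), up to 4 of the most abundant sensors and receptors, and the 10 genes most alike the score. The overlapping genes, *Rps2*, *Ifnb1*, *Ifit3b*, genes named for a call without 1 mouse and the named markers were added after values were seen. The values of some single genes of the pathway are not reported here.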

Additional observations from a re-analysis of the deposited data

Results flagged for a closer look

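In 6 of the 9 genes the level in A226Y animal 29 stood apart from those of the other 9 A226Y mice by Dixon's test at the 95% level, in which the gap to the nearest mouse is divided by the range of the group. The ratio was 0.753 for *Irf7* (91.4 CPM, next mouse 35.1), 0.826 for *Oasl2* (9.14 CPM, next 3.43) and 0.651 for *Usp18* (13.7 CPM, next 8.03). It was 0.604 for *Rsad2* (18.1 CPM, next 10.2), 0.6 for *Ifit3* (9.17 CPM, next 4.9) and 0.555 for *Irf9* (41.1 CPM, next 29.3). For the score over all 9 genes it was 0.584, with 0.81 in animal 29 and −0.11 in the next mouse. *Stat2*, *Isg15* and *Ifit1* gave no such result in the A226Y group, nor did any of the 9 genes or the score in the WT group. The test was made in 20 groups of mice (the 9 genes and the score, in each genotype). Where values are normally distributed, chance alone singles out a mouse in about 1 in 20 groups. The genes were tested on CPM and the score on the log2 scale, and the ratios of the genes depend on that choice. All 7 results concern the same animal and genes that vary together, so they are not separate observations. The library of animal 29 held 32045654 counts, which lies within the range of the other mice.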

How the results depend on the processing

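The 9 genes gave 234 log2 fold changes under alternatives, of which 5 changed sign, all with the surrogate variables. Those were *Isg15* (0.06), *Ifit1* (0.06), *Ifit3* (0.11), *Usp18* (0.18) and *Rsad2* (0.06). The same covariates turned *Ifnar2* (0.02), *Zbp1* (0.03), *Mavs* (−0.01), *Gbp6* (0.12), *Cmpk2* (0.22) and *Gbp9* (0.21), so 11 of 47 named genes changed sign and each of the 30 that were called lost its call, and the cause was not tested. *Ifnar1*, at 0.01, turned with the length offset (−0.03) and the GC offset (−0.02), and lay between −0.01 and 0.03 without 1 mouse. The number of genes called fell from 1910 to 50 with the surrogate variables and ranged from 1255 to 2560 without 1 mouse, lowest without WT animal 14. Of the 9 genes, 4 were called with DESeq2, 0 with the surrogate variables, 2 with the length offset and 3 with the GC offset, and from 1 to 7 without 1 mouse. Of other interferon-stimulated genes, 6 were called with library size only and 0 with the surrogate variables, and from 5 to 37 without 1 mouse. Of the GTPases, 0 were called with the surrogate variables, and from 5 to 15 without 1 mouse. The share of all called genes that were higher was 50.8% in the test reported, 67.9% with library size only, 28.2% with the length offset and 28.7% with the GC offset. With library size only, the exact permutation p of *Ifit3* and *Oasl2* no longer lay under 0.05. No paired analysis was possible because the genotypes share no animal number.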
